A study of Homo sapiens and Mus musculus with 21 samples.

Results

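Mature single positive thymocytes are T cells at the end of their development in the thymus, and S1pr1 marks those that can leave it. They were taken here from the thymus of Dhx15 knockout and Dhx15 fl/fl mice by UMIs alone (unique molecular identifiers, each counting 1 captured RNA molecule). A cell with at least 500 detected genes and under 10% of its UMIs from mitochondrially encoded genes was kept as a filtered cell. A filtered cell was called mature when it held at least 1 UMI of S1pr1, at least 2 of Klf2 and at least 1 of Trac, and 0 of Trdc, Klrd1, Rag1, Il2ra, Mki67 and Top2a. This left 149 mature cells of 17918 deposited barcodes, 13 from the knockout library and 136 from the Dhx15 fl/fl library. The names below are short forms of these: knockout cells carry the label for loss of Dhx15, an RNA helicase of the DEAH-box family, and fl/fl cells carry the floxed gene with no recorded deletion. All animals were 6 weeks old, and the suspensions held total thymocytes without a sort. The sources used here give neither the promoter that drives the deletion nor the number of animals behind each library. The word mature below names cells that passed this gate, which may not be of the same kind in both libraries. The naive T cell genes Ccr7 and Lef1 were detected in 4 and 5 of the 13 knockout cells. In the 136 fl/fl cells they were detected in 114 and 127.

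With 1 library per genotype no difference between the genotypes could be tested. Ratios are therefore given with exact 95% intervals that cover counting error only, and differences between animals are not in them. The same series holds human leukaemia cell line experiments, which were not used here.

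Thymocytes pass from a double positive stage, with both coreceptors CD4 and CD8, to single positive cells that keep one coreceptor and its restriction to an MHC class. New single positive cells carry CCR9 and CD69. Late maturation brings in the transcription factor KLF2, which induces the sphingosine 1-phosphate receptor S1PR1, and S1PR1 then guides the cells out along a lipid gradient.

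The knockout library held 8484 barcodes with a median of 6083.5 UMIs, and the fl/fl library 9434 barcodes with a median of 3599 UMIs. After filtering 7261 knockout cells (85.6%) and 8818 fl/fl cells (93.5%) remained. The libraries shared 17 barcode sequences, and 0 of these belonged to a mature cell. The mature cells differed less in depth, with a median of 6177 UMIs (3156 to 13356) in the 13 knockout cells and 6888 UMIs (1794 to 16064) in the 136 fl/fl cells. A doublet caller marked 1 knockout cell and 0 fl/fl cells of all filtered cells, which is too few for a working call, so doublets were left in.

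Dhx15 itself was lower in the knockout library but not absent. Its level was 100.2 CPM (counts per 1000000 UMIs of the cells summed) over all filtered knockout cells and 181 CPM over all filtered fl/fl cells. In mature cells it had 7 UMIs in 6 of 13 knockout cells, or 81.4 CPM, against 130 UMIs in 81 of 136 fl/fl cells, or 130 CPM. The ratio of 0.63 had an interval of 0.25 to 1.33, which includes 1. In double positive cells, with far more UMIs, it was at 118 CPM in the knockout and 177 CPM in the fl/fl library (ratio 0.67, 0.61 to 0.73). A count over a whole gene need not report a deleted exon, and the sources used here do not say which part of Dhx15 is deleted.

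Cells that passed the gate were scarcer in the knockout thymus. They made up 13 of 7261 filtered knockout cells (0.179%, exact binomial interval 0.0954 to 0.306%) and 136 of 8818 filtered fl/fl cells (1.54%, 1.30 to 1.82%), a ratio of 0.116 (0.0603 to 0.205). Because a gate on detected UMIs follows depth, every cell was also thinned to 2000 UMIs, which left out 273 knockout and 532 fl/fl cells with fewer. The gate then found 5 of 6988 knockout cells (0.0716%) and 62 of 8286 fl/fl cells (0.748%), a ratio of 0.0956. The gated cells may not be of the same kind in both libraries: 9 of the 13 knockout cells carried S100a6, of which 1 had detected Ccr7 and 2 Lef1, while S100a6 was found in 4 of the 136 fl/fl cells. In the share above and in every ratio below, a different mix of cells and a different level in like cells cannot be told apart.

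**Figure D1:**
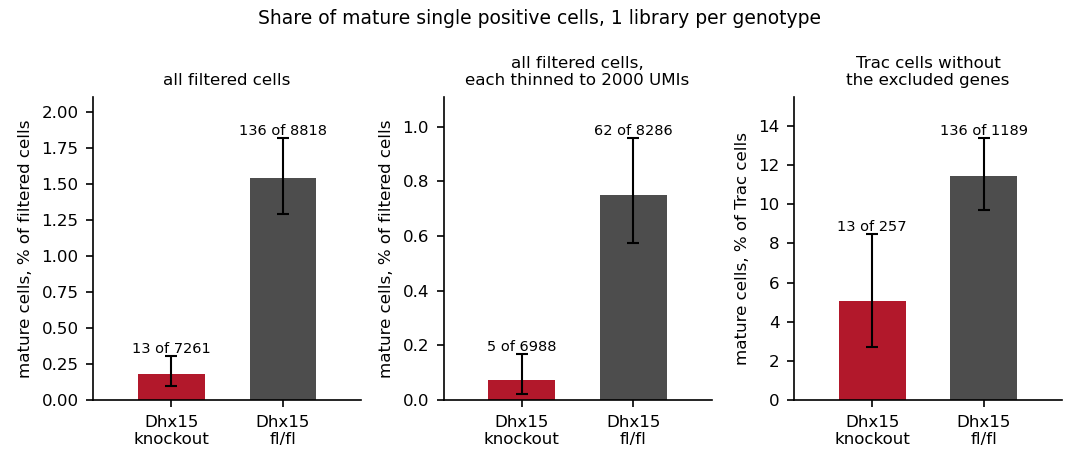
Share of mature cells in 1 knockout and 1 Dhx15 fl/fl library, as a percentage of all filtered cells, of all filtered cells thinned to 2000 UMIs, and of Trac cells without the excluded genes. Bars are shares, whiskers exact 95% binomial intervals and labels cell counts. The knockout share was 0.179% against 1.54% of filtered cells, and 5.06% against 11.4% of the Trac cells.

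The size of the difference depended on the cells that it was counted over. Cells with Trac and none of the excluded genes were themselves scarcer, 257 (3.54% of filtered cells) in the knockout library and 1189 (13.5%) in the fl/fl library. Within that pool 13 knockout cells (5.06%, 2.72 to 8.49%) and 136 fl/fl cells (11.4%, 9.68 to 13.4%) were mature, a ratio of 0.442 (0.230 to 0.782). After thinning 1.40% of the knockout pool (0.458 to 3.25%) and 4.33% of the fl/fl pool (3.33 to 5.51%) were mature. S1pr1 was detected in 17 of the 257 knockout cells (6.61%) and 172 of the 1189 fl/fl cells (14.5%). At least 2 Klf2 UMIs were found in 34 knockout cells (13.2%) and 228 fl/fl cells (19.2%) of the pool.

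Among the cells with S1pr1 the Klf2 requirement kept similar shares, 76.5% in the knockout library and 79.1% in the fl/fl library. Single-coreceptor cells, defined here as Trac cells with either Cd4 or Cd8a but not both and no S1pr1, Klf2 or excluded gene, served as the less mature neighbours. They numbered 96 (1.32% of filtered cells) in the knockout library and 460 (5.22%) in the fl/fl library. Double positive cells, defined by Cd4, Cd8a and Rag1 without Trdc, Mki67 or Top2a, numbered 1473 (20.3%) in the knockout library and 4135 (46.9%) in the fl/fl library. Both S1pr1 and Klf2 were rare in double positive cells: S1pr1 was detected in 0.679% of the knockout and 1.11% of the fl/fl cells, and at least 2 Klf2 UMIs in 1.15% of the knockout and 1.02% of the fl/fl cells. Their median depths were 3532 UMIs in the knockout library and 3300 UMIs in the fl/fl library.

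Near the Klf2 threshold the counts were small. Exactly 2 Klf2 UMIs, just inside, were held by 3 knockout and 23 fl/fl cells, and exactly 1, just outside, by 2 knockout and 21 fl/fl cells. Ms4a4b, a membrane protein gene of late single positive cells, was at 1684 CPM just inside and 872 CPM just outside in the knockout library. In the fl/fl library it was at 1524 CPM just inside and 1289 CPM just outside.

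The gate genes chose the cells and are given as a description. S1pr1 was at 349 CPM in knockout and 517 CPM in fl/fl mature cells, and Klf2 at 860 CPM in knockout and 887 CPM in fl/fl mature cells. Of the markers that the gate did not use, Ms4a4b was close between genotypes, at 1290 CPM in 12 of 13 knockout cells and 1413 CPM in 130 of 136 fl/fl cells (ratio 0.91, 0.75 to 1.11). Ccr7, the chemokine receptor that takes single positive cells into the medulla and naive T cells into lymph nodes, was at 128 CPM in 4 of 13 knockout cells and 346 CPM in 114 of 136 fl/fl cells (ratio 0.37, 0.18 to 0.67). A single knockout cell held 7 of the 11 Ccr7 UMIs. Most fl/fl cells thus carried all 4 markers, while 9 of the 13 knockout cells had S1pr1 and Klf2 without detected Ccr7.

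Set against all other filtered cells, genes were ranked by the smaller of their ratios in the 2 libraries. Over 1592 genes with at least 100 UMIs in mature cells, 137 (8.61%) were at least 2-fold higher than in the rest in both libraries and 49 (3.08%) at least 2-fold lower in both. Ms4a4b was 11.2-fold higher in knockout and 10.7-fold higher in fl/fl mature cells than in the other cells of the same library. The immune-associated GTPase genes Gimap3 and Gimap4, which act in lymphocyte survival, were 17.4-fold and 12.5-fold higher in the knockout library and 10.2-fold and 7.07-fold higher in the fl/fl library. Itgb7, the beta chain of a gut-homing integrin, was 17.5-fold higher in the knockout and 7.61-fold higher in the fl/fl library.

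The interferon-inducible genes Ifi27l2a, Ifit1 and Slfn1 and the MHC class I heavy chain gene H2-K1 belonged to the same 15 leading genes. H2-K1 was 6.48-fold higher in knockout and 6.88-fold higher in fl/fl mature cells than in the rest of their library. Ifi27l2a was 19.0-fold higher in the knockout and 8.94-fold higher in the fl/fl library. The 15 genes furthest below the rest of the thymus in both libraries included the chromatin genes Hmgb1, Hmgb2, H2afz and Hmgn2, the tubulin regulator Stmn1 and the coreceptor genes Cd8a and Cd8b1. Stmn1 was at a ratio of 0.105 in the knockout library, where mature cells held 12 of its UMIs. These comparisons describe 2 libraries and carry no test, and the gate on Mki67 and Top2a had already removed cells with those cell cycle genes from the mature side. The gate on Rag1 had also removed the Rag1 double positive cells from that side. Cd8a was at 1779 CPM in the double positive cells of the knockout and 2282 CPM in those of the fl/fl library. The low Cd8a and Cd8b1 thus follow in part from the gate.

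**Figure D2:**
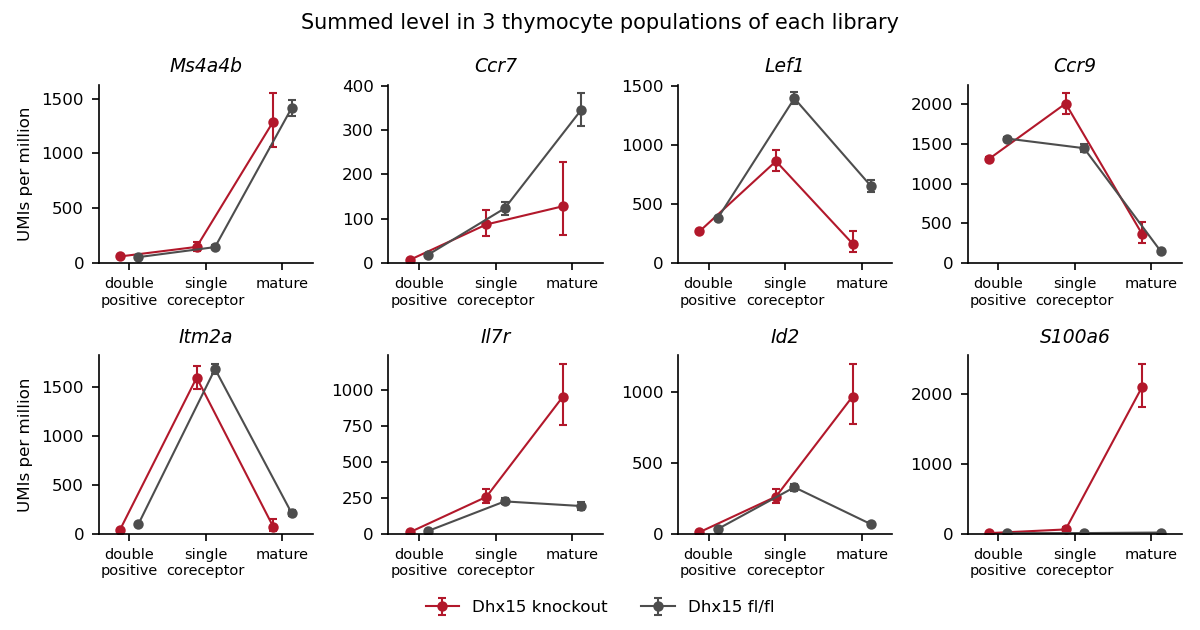
Summed level in CPM of 8 genes in double positive, single-coreceptor and mature cells of the knockout (red) and Dhx15 fl/fl (grey) library. Points are sums over cells of 1 library and whiskers exact 95% Poisson intervals, which cover counting error only. Ms4a4b reached 1290 and 1413 CPM in mature cells of the knockout and fl/fl library, Ccr7 128 and 346 CPM, and S100a6 2104 and 14.0 CPM.

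Along the 3 populations the early genes were high in single-coreceptor cells and low in mature cells of both genotypes. Ccr9, the chemokine receptor of cortical and newly selected thymocytes, was at 2009 CPM in single-coreceptor and 360 CPM in mature knockout cells. In fl/fl cells it was at 1446 CPM in single-coreceptor and 149 CPM in mature cells. One mature knockout cell with 10262 UMIs held 22 of the 31 Ccr9 UMIs, and without it the log2 ratio of knockout to fl/fl was -0.32. Itm2a, a membrane protein gene induced at positive selection, was at 69.7 CPM in knockout and 210.4 CPM in fl/fl mature cells (ratio 0.33, 0.12 to 0.73). Lef1, a transcription factor of the Wnt pathway and of naive T cells, was at 163 CPM in 5 of 13 knockout and 651 CPM in 127 of 136 fl/fl mature cells (ratio 0.25, 0.14 to 0.42), and its single-coreceptor ratio was 0.62.

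The coreceptor makeup could be read for few knockout cells. Cd4 alone was detected in 7 knockout and 65 fl/fl mature cells, Cd8a alone in 0 knockout and 29 fl/fl cells, both in 1 knockout and 17 fl/fl cells, and neither in 5 knockout and 25 fl/fl cells. Of cells with a single coreceptor gene, Cd8a cells were thus 0 of 7 in the knockout library, with an exact interval up to 41.0%. In the fl/fl library they were 29 of 94 (30.9%, 21.7 to 41.2%). The fl/fl share lies within what 0 of 7 allows, so a difference in lineage was not detectable at this depth. With 29 cells of the Cd8a class in both libraries together, the classes were not compared between genotypes.

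Within the fl/fl library the classes differed in most of their lineage genes. Gata3, a CD4 lineage factor, was close, at 83.7 CPM in Cd4 cells and 70.7 CPM in Cd8a cells. Zbtb7b, the master regulator of the CD4 lineage, was at 83.7 CPM in Cd4 cells and 19.6 CPM in Cd8a cells, and Cd40lg, a helper ligand, at 81.6 CPM in Cd4 cells and 11.8 CPM in Cd8a cells. Runx3, which directs the CD8 lineage, was at 204 CPM in Cd8a cells and 68.7 CPM in Cd4 cells, Nkg7 at 585 CPM in Cd8a cells and 4.29 CPM in Cd4 cells, and Cd8b1 at 997 CPM in Cd8a cells and 32.2 CPM in Cd4 cells. In the 7 knockout cells with Cd4 alone Zbtb7b had 4 UMIs in 4 cells, or 73.9 CPM. Gata3, which was close between the fl/fl classes, had 15 UMIs in 6 of these cells, and Runx3 15 UMIs in 5, each at 277 CPM. All 18 Cd8b1 UMIs of the knockout mature cells came from the cell with 10262 UMIs, which also held 8 UMIs of Cd4 and the 1 UMI of Cd8a. Whether that barcode held more than 1 cell was not tested.

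Between genotypes most genes were close. Over 4677 genes with at least 30 UMIs in mature cells the median log2 ratio of knockout to fl/fl was -0.03, with 363 genes (7.76%) at least 2-fold higher and 572 (12.2%) at least 2-fold lower in knockout cells. Over the 1592 genes with at least 100 UMIs, 51 (3.2%) were at least 2-fold higher and 107 (6.72%) at least 2-fold lower. These counts have no replicate check, and with 86027 UMIs in all knockout mature cells a gene at 30 UMIs over both libraries usually had only a few in the knockout. The minimum was thus met mostly through fl/fl UMIs. Without a minimum 1881 of 11528 genes were at least 2-fold higher and 691 at least 2-fold lower. Which direction held more genes therefore depended on the minimum.

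Among the 15 genes furthest above the fl/fl level were S100 genes, cytokine receptors and interferon-inducible genes. S100a6, a calcium-binding protein of the S100 family, had 181 UMIs in 9 of 13 knockout cells, or 2104 CPM, against 14 UMIs in 4 of 136 fl/fl cells, or 14.0 CPM (ratio 151, 87.5 to 281). By increasing depth the 13 knockout cells held 0, 4, 31, 1, 0, 0, 0, 39, 34, 16, 32, 13 and 11 UMIs of S100a6. The 4 positive fl/fl cells held 1 to 6 UMIs, and 7 of the 9 positive knockout cells held more UMIs than any fl/fl cell. Left out in turn, no knockout cell moved the ratio outside 128 to 168.

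Ly6a, the surface antigen Sca-1, which is interferon-inducible and high on memory T cells, was at 1674 CPM in 9 of 13 knockout cells and 109.7 CPM in 35 of 136 fl/fl cells (ratio 15.3, 11.8 to 19.7). Id2, an inhibitor of E proteins, was at 965 CPM in 8 of 13 knockout cells and 65.8 CPM in 34 of 136 fl/fl cells (ratio 14.7, 10.5 to 20.6). Il7r, the interleukin-7 receptor alpha chain, was at 953 CPM in 10 of 13 knockout cells and 191 CPM in 63 of 136 fl/fl cells (ratio 4.98, 3.80 to 6.48). Both libraries had Id2 and Il7r detected in mature cells, and the highest count of Id2 was 26 UMIs in a knockout cell and 6 UMIs in a fl/fl cell.

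The other 11 of the 15 leading genes had ratios of 3.62 to 6.76. AW112010, an interferon-inducible transcript, was at 1139 CPM in knockout and 169 CPM in fl/fl cells. Further S100 genes belonged to them: S100a11 was at 721 CPM in knockout and 113 CPM in fl/fl cells, and S100a10 at 1697 CPM in knockout and 433 CPM in fl/fl cells. The galectin gene Lgals1 was at 930 CPM in knockout and 194 CPM in fl/fl cells, and Crip1, a LIM-domain protein gene, at 2336 CPM in knockout and 580 CPM in fl/fl cells.

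Srgn, the granule proteoglycan serglycin, had a ratio of 3.89, and Ifngr1, the ligand-binding chain of the interferon-gamma receptor, a ratio of 3.62. Socs1, an inhibitor of cytokine signalling, had a ratio of 3.76, which was 2.59 without the cell with its largest count, 14 of 39 UMIs. H2-Q7, of the Qa-2 group of class I genes, was at 895 CPM in knockout and 188 CPM in fl/fl cells, and its reads are uncertain because near-identical copies lie beside it. Serinc3 and Apobec3, both factors that restrict retroviruses, had ratios of 3.77 and 3.76.

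**Figure D3:**
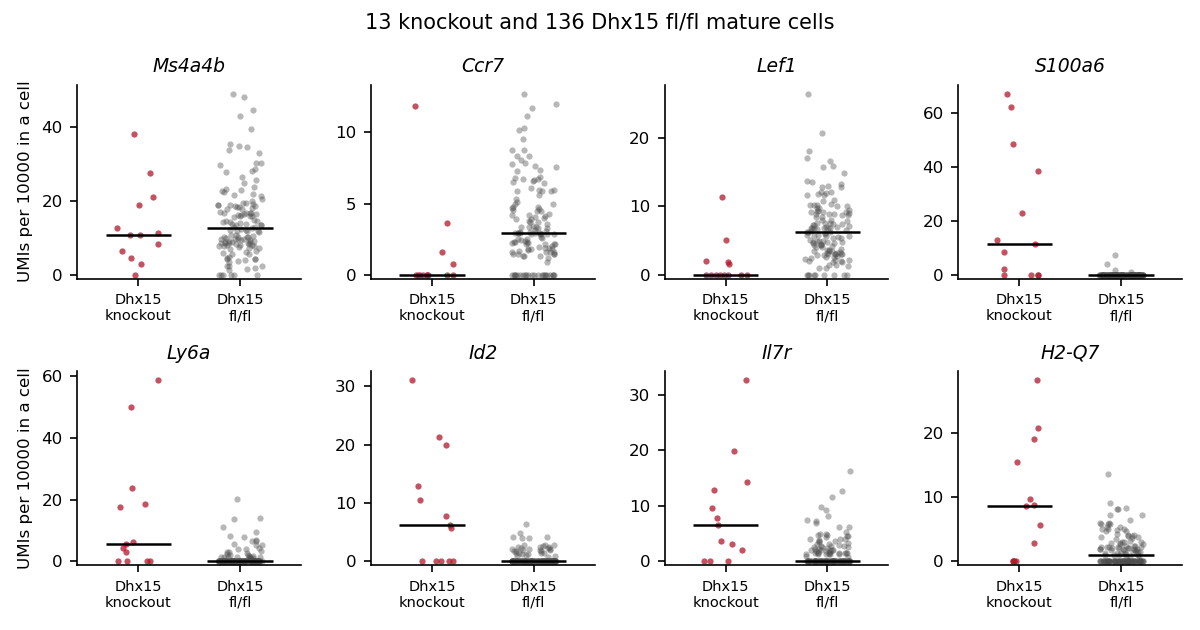
UMIs per 10000 of 8 genes in each of 13 knockout (red) and 136 Dhx15 fl/fl (grey) mature cells, with horizontal jitter and the median as a line. Ms4a4b overlaps between the genotypes, while S100a6 was detected in 9 of 13 knockout and 4 of 136 fl/fl cells and Ccr7 in 4 of 13 knockout and 114 of 136 fl/fl cells.

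The genes above stood together in the same knockout cells. The 13 cells were divided by detection of S100a6, a split chosen after the values were seen, so its counts are a description of these cells. All 9 knockout cells with S100a6 also had Ly6a, Il7r and H2-Q7, and 8 of the 9 had Id2, while Ccr7 was detected in 1 and Lef1 in 2. Of the 4 knockout cells without S100a6, Ly6a, Id2 and H2-Q7 were detected in 0, Il7r in 1, and Ccr7 and Lef1 in 3 each.

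Depth moved with this split, with a median of 7017 UMIs in the 9 cells and 5698 UMIs in the 4, and its part in the result was not tested. Ms4a4b was detected in all 9 cells with S100a6 and in 3 of the 4 without. Dhx15 had 4 UMIs in the 9 cells and 3 UMIs in the 4. In the fl/fl library the 4 cells with S100a6 had Ccr7 in 2 and Lef1 in 3, so there S100a6 was found both with and without Ccr7.

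Further genes known from effector and memory T cells were chosen after their values were seen, and others looked at with them are not given. Those printed here were mostly higher in the knockout and do not stand for such genes as a set. Nkg7 and Il2rb, from the marker lists, were not higher, with ratios of 0.78 (0.38 to 1.43) and 0.95 (0.19 to 2.98). S100a4 had 86 UMIs in 9 knockout and 5 UMIs in 2 fl/fl cells (ratio 200, 82.7 to 633). Maf, a transcription factor of interleukin-4- and interleukin-10-producing T cells, had 32 UMIs in 9 knockout and 6 UMIs in 3 fl/fl cells (ratio 62.2, 25.6 to 182). Il18r1, a receptor chain for interleukin-18, had 25 UMIs in 8 knockout and 17 UMIs in 9 fl/fl cells (ratio 17.1, 8.90 to 33.8).

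Rora, a nuclear receptor gene of helper and innate-like lymphocytes, had 27 UMIs in 7 knockout and 12 UMIs in 9 fl/fl cells (ratio 26.2, 12.8 to 56.8). Cd44, an adhesion receptor of antigen-experienced T cells, had 12 UMIs in 5 knockout and 36 UMIs in 26 fl/fl cells (ratio 3.89, 1.84 to 7.64). The chemokine gene Ccl5 had 39 UMIs in the knockout, of which 37 came from 1 cell. Tcf7, a transcription factor of naive and memory T cells, was close, at 790 CPM in knockout and 667 CPM in fl/fl cells (ratio 1.18, 0.91 to 1.52).

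Over all filtered cells the knockout library also carried more of the 15 leading genes, except Id2, S100a10 and Socs1. Id2 was at 53.9 CPM in the knockout and 79.6 CPM in the fl/fl library. S100a10 was at 263 and 373 CPM, and Socs1 at 178 and 284 CPM, in the same order. S100a6 was detected in 7.88% of all filtered knockout cells and 1.51% of all filtered fl/fl cells, with median depths of 7197 and 3710 UMIs in the knockout and fl/fl library. In double positive cells it was detected in 1.49% of knockout and 0.701% of fl/fl cells, and in single-coreceptor cells in 3.13% of knockout and 1.30% of fl/fl cells. In knockout mature cells the share with S100a6 was 69.2% (38.6 to 90.9%). S100a6 was named for its ratio in these same cells, so that share is a description and no test. Maf was detected in 8.08% of knockout and 0.726% of fl/fl double positive cells, and in 69.2% of knockout and 2.21% of fl/fl mature cells.

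The direction of some genes differed between stages. Id2 was lower in the knockout at the earlier stages, with a ratio of 0.80 in single-coreceptor and 0.29 in double positive cells, against 14.7 in mature cells. Il7r had a ratio of 0.49 in double positive, 1.14 in single-coreceptor and 4.98 in mature cells. S100a6 had a ratio of 1.22 in double positive and 9.31 in single-coreceptor cells, and Ly6a 2.31 in double positive and 10.2 in single-coreceptor cells. Differences between these ratios were not tested.

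**Figure D4:**
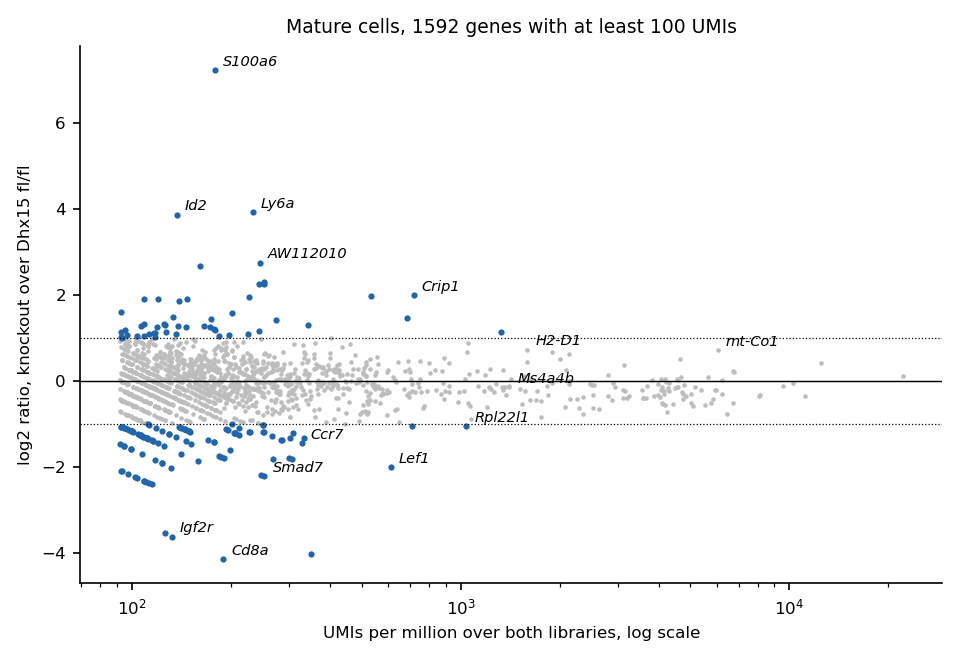
Log2 ratio of knockout to Dhx15 fl/fl summed levels in mature cells against the level over both libraries (log scale), for 1592 genes with at least 100 UMIs. Dotted lines mark 2-fold and blue points lie at or beyond it: 51 genes higher and 107 lower in knockout cells, with S100a6 at the top.

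The genes furthest below the fl/fl level rested on few knockout UMIs. Cd8a, already named for the coreceptors, had 1 UMI in the knockout and 205 UMIs in 46 fl/fl cells (ratio 0.057, 0.0014 to 0.32). Igf2r, the cation-independent mannose 6-phosphate receptor, had 1 UMI against 143, and the ubiquitin ligase gene Ttc3 1 UMI against 136. Their ratios were 0.081 (0.0020 to 0.46) and 0.086 (0.0022 to 0.49). For 13 of these 15 genes the knockout count was 1 or 2 UMIs, which leaves wide intervals. All 15 met the UMI minimum mostly through fl/fl cells and were then picked for their low ratios. That choice favours genes whose knockout count was low by chance, and the intervals do not allow for it.

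The other members, Smad7 and Evl, had 5 UMIs each in the knockout. Smad7, the inhibitor of transforming growth factor beta signalling, was at 58.1 CPM in 3 of 13 knockout and 269 CPM in 109 of 136 fl/fl cells (ratio 0.22, 0.070 to 0.51). Evl, an actin regulator of T cell migration, was at 58.1 CPM in 4 of 13 knockout and 264 CPM in 98 of 136 fl/fl cells (ratio 0.22, 0.071 to 0.52). After thinning, when 5 knockout cells remained, both were on the other side of 0 on the log2 scale, at 0.54 for Smad7 and 0.21 for Evl. Of the other genes Magoh, an exon junction complex subunit, had 2 UMIs in knockout and 123 in fl/fl cells (ratio 0.19, 0.023 to 0.70). Il6st, the shared receptor chain gp130, and Izumo1r, the folate receptor 4 gene, each had 2 UMIs in knockout and 117 in fl/fl cells (ratio 0.20, 0.024 to 0.74).

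Gene lists were read by their summed level and by the members beyond 2-fold, beside the shares of 3.2% and 6.72% over all 1592 genes. The list of thymic egress and migration genes was at 6893 CPM in knockout and 7097 CPM in fl/fl mature cells (ratio 0.97, 0.89 to 1.06). Of its 13 members with at least 100 UMIs, 1 was at least 2-fold higher and 3 at least 2-fold lower. Itga4, an integrin alpha chain, was the higher one, at 314 CPM in knockout and 132 CPM in fl/fl cells (ratio 2.38, 1.51 to 3.63). Without 1 knockout cell its ratio was 1.87, within 2-fold.

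Ccr7 and Itgb2 were among the 3 lower members. Itgb2, the shared beta chain of leukocyte integrins, was at 116 CPM in knockout and 262 CPM in fl/fl cells (ratio 0.44, 0.21 to 0.83), and was also low in double positive cells (ratio 0.29). Without 1 knockout cell the mature ratio was 0.503, just within 2-fold. The list includes S1pr1, which the gate used.

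Maturation genes of single positive cells were likewise close in sum, with a ratio of 0.98 (0.94 to 1.03). Of 29 members with at least 100 UMIs, 4 were at least 2-fold higher (S100a11, S100a10, Il7r and H2-Q7) and 3 at least 2-fold lower (Lef1 and Evl among them), and their median log2 ratio was -0.25 against -0.06 over all 1592 genes. Early single positive genes were at 1604 CPM in knockout and 1863 CPM in fl/fl cells. Of 7 members Cd69 and Ccr9 were higher and Itm2a, Tox and Id3 lower, with Ccr9 (ratio 0.80) and Tox (0.51) within 2-fold without 1 knockout cell each. Cd69, which holds back egress by binding S1PR1, was at 244 CPM in 8 of 13 knockout and 79.8 CPM in 39 of 136 fl/fl cells (ratio 3.06, 1.80 to 5.00).

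Tox, a regulator of CD4 lineage development, was at 93.0 CPM in knockout and 216 CPM in fl/fl cells (ratio 0.43, 0.18 to 0.86). Id3, an inhibitor of E proteins like Id2, was at 128 CPM in knockout and 318 CPM in fl/fl cells (ratio 0.40, 0.20 to 0.73), opposite in direction to Id2. Among 20 transcription factors of the T lineage with at least 100 UMIs, Id2 was the only one at least 2-fold higher, and Lef1, Tox and Id3 were at least 2-fold lower. The CD4 lineage list had a ratio of 1.31 (1.05 to 1.62) and the CD8 lineage list 1.34 (1.104 to 1.61), the second at 0.89 without 1 knockout cell. The double positive list had 0 of 3 members beyond 2-fold and a summed ratio of 1.27, which was 0.53 without the cell of 10262 UMIs.

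MHC class I and peptide loading genes were higher in sum, at 12508 CPM in knockout and 8180 CPM in fl/fl cells (ratio 1.53, 1.43 to 1.63), and 1.36 to 1.61 with each knockout cell left out in turn. Only H2-Q7 of 13 members passed 2-fold. H2-D1, a class I heavy chain, was at 2522 CPM in all 13 knockout and 1517 CPM in all 136 fl/fl cells (ratio 1.66, 1.44 to 1.92). Tap1, a peptide transporter subunit, was at 93.0 CPM in knockout and 149 CPM in fl/fl cells (ratio 0.63, 0.265 to 1.265). The same list had ratios of 0.86 in single-coreceptor and 1.27 in double positive cells.

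The interferon response list rested on 1 knockout cell. It was at 8660 CPM in knockout and 5226 CPM in fl/fl cells (ratio 1.66, 1.53 to 1.79), but a knockout cell with 6296 UMIs held 301 of the 745 list UMIs, or 40.4%. Without that cell the ratio was 1.07. The cell's list level was 47808 CPM, against 13759 CPM in the next knockout cell and 18418 CPM in the highest fl/fl cell, and the medians over cells were 5188 CPM in knockout and 4432 CPM in fl/fl cells.

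Of 18 interferon response members 2 were at least 2-fold higher and 0 at least 2-fold lower. Zbp1, a nucleic acid sensor, was at 221 CPM in knockout and 104 CPM in fl/fl cells (ratio 2.13, 1.23 to 3.50). Ifit1, an antiviral RNA-binding protein, was at 384 CPM in 5 of 13 knockout and 181 CPM in 54 of 136 fl/fl cells (ratio 2.11, 1.41 to 3.08), with 45.5% of its knockout UMIs in 1 cell. Without the knockout cell with 6296 UMIs their ratios were 1.33 for Zbp1 and 1.24 for Ifit1, both within 2-fold. Isg15, a ubiquitin-like modifier, had 5 UMIs in 1 knockout cell and 100 UMIs in 39 fl/fl cells (ratio 0.58, 0.185 to 1.41).

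Cytokine receptor and signalling genes were higher in sum, at 3941 CPM in knockout and 2604 CPM in fl/fl cells (ratio 1.51, 1.35 to 1.695). Of 10 members Il7r, Socs1 and Ifngr1 were at least 2-fold higher and Il6st at least 2-fold lower. The 20 members of the T cell receptor complex and its proximal signalling held 0 beyond 2-fold in either direction, with a summed ratio of 0.98 (0.92 to 1.04). Fyn, a receptor-proximal kinase, was at 116 CPM in knockout and 226 CPM in fl/fl cells (ratio 0.51, 0.24 to 0.96), and Zap70, the kinase recruited to the receptor, at 174 CPM in knockout and 95.7 CPM in fl/fl cells (ratio 1.82, 0.98 to 3.16). Trac, a gate gene, was at 732 CPM in knockout and 1096 CPM in fl/fl cells.

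Immediate early and activation genes were at a summed ratio of 1.02, with Cd69 and Zfp36l2 at least 2-fold higher and Zfp36l1 at least 2-fold lower of 13 members. The Zfp36l genes encode related proteins that promote decay of AU-rich mRNAs. Zfp36l2 was at 756 CPM in 12 of 13 knockout and 308 CPM in 111 of 136 fl/fl cells (ratio 2.45, 1.85 to 3.21), with ratios of 2.45 in single-coreceptor and 6.66 in double positive cells. Zfp36l1 was at 93.0 CPM in 4 of 13 knockout and 319 CPM in 106 of 136 fl/fl cells (ratio 0.29, 0.125 to 0.58).

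Genes for RNA processing, the process in which Dhx15 acts, were slightly lower in sum. The list of DEAH and DEAD helicases and the core spliceosome was at 5568 CPM in knockout and 6227 CPM in fl/fl cells (ratio 0.89, 0.81 to 0.98), with 0 of 20 members beyond 2-fold. SR and hnRNP splicing regulators had a ratio of 0.89 (0.82 to 0.95), with 1 of 33 lower: Srsf6, an SR splicing factor, was at 69.7 CPM in knockout and 157 CPM in fl/fl cells (ratio 0.445, 0.16 to 0.99). G-patch partners, the proteins that activate DHX15, had 47 UMIs in knockout and 742 UMIs in fl/fl cells (ratio 0.74, 0.54 to 0.99). None of 3 members with at least 100 UMIs passed 2-fold. Of 6 members with at least 30 UMIs 1 was at least 2-fold lower, Gpatch4 at a ratio of 0.28. The share of lower genes at that minimum was 12.2% over all genes.

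Ribosomal protein genes were at 252816 CPM in knockout and 307033 CPM in fl/fl mature cells (ratio 0.82, 0.81 to 0.83). Rpl22l1, a paralog of Rpl22, was the member of 79 beyond 2-fold, at 523 CPM in 13 of 13 knockout and 1084 CPM in 133 of 136 fl/fl cells (ratio 0.48, 0.35 to 0.65), and between 0.45 and 0.51 with each knockout cell left out in turn. Its ratios were 0.32 in single-coreceptor and 0.56 in double positive cells. For the whole list the earlier stages went the other way, with ratios of 1.03 in single-coreceptor and 1.24 in double positive cells. The list's range over cells was 156695 to 366951 CPM in knockout and 71009 to 435149 CPM in fl/fl cells, so the genotypes overlapped.

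Ribosome biogenesis genes had a ratio of 0.86 (0.76 to 0.98) with 0 of 9 beyond 2-fold, and 1.15 after thinning. The snoRNA host genes, of which 8 of 20 were in the count table, had a ratio of 0.71 (0.64 to 0.78) with 0 of 3 beyond 2-fold. Mitochondrially encoded genes were higher in sum, at 42614 CPM in knockout and 35329 CPM in fl/fl cells (ratio 1.21, 1.17 to 1.25). Of 12 members mt-Nd4l was at least 2-fold lower, with 5 UMIs in knockout and 199 UMIs in fl/fl cells, and mt-Co1, a subunit of complex IV, had a ratio of 1.65 (1.54 to 1.78). Because the gate requires under 10% of UMIs from these genes, their levels are limited from above in both libraries. Nuclear oxidative phosphorylation genes had a ratio of 1.01 with 0 of 25 beyond 2-fold, and glycolysis genes 1.05 with 0 of 6 (0.71 after thinning).

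Stress and survival lists gave small differences in sum. Heat shock chaperones had a ratio of 0.80 (0.72 to 0.88), with Cct5, a subunit of the TRiC chaperonin, the 1 of 14 beyond 2-fold, at 93.0 CPM in knockout and 221 CPM in fl/fl cells. BCL2 family genes had a ratio of 1.43 (1.16 to 1.74), and Mcl1, which keeps lymphocytes alive, was at 465 CPM in knockout and 332 CPM in fl/fl cells (ratio 1.40, 0.98 to 1.95). The p53 target list had a ratio of 1.21 (0.99 to 1.46), with Trp53inp1 the 1 of 4 beyond 2-fold, and 53.8% of its knockout UMIs lay in 1 cell, without which its ratio was 1.27. The ATF4 stress list had a ratio of 0.98, amino acid transporters 0.85, glutamine metabolism 1.34, and the mTORC1 pathway 0.88. Few of their members had at least 100 UMIs (2, 1, 1 and 6 in that order), and 0 of these lay beyond 2-fold. With at least 30 UMIs, 2 of 9 ATF4 members and 2 of 5 transporters were at least 2-fold lower. Of 9 glutamine members 3 were higher and 2 lower, and 0 of 14 mTORC1 members lay beyond 2-fold. Over all genes at that minimum 7.76% were higher and 12.2% lower. Sterol synthesis had a ratio of 1.19 with no member of at least 100 UMIs, and of 5 members with at least 30 UMIs 1 was higher and 2 lower. After thinning, when 5 knockout cells remained, the direction turned for p53 targets (0.79), amino acid transporters (1.22), glutamine metabolism (0.73) and the ATF4 list (1.35).

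**Figure D5:**
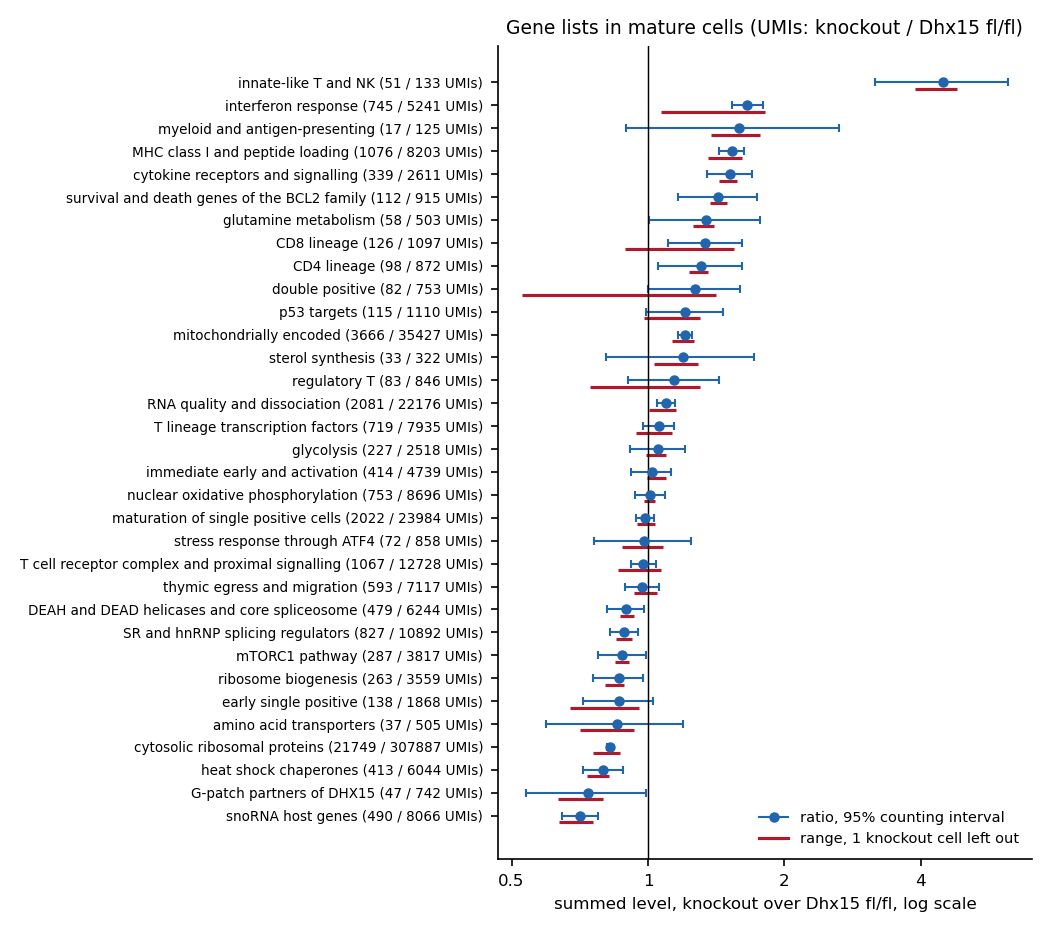
Summed level of 33 gene lists in mature cells, knockout over Dhx15 fl/fl (log scale), with exact 95% counting intervals in blue and, in red, the range when each knockout cell is left out in turn. The interferon list lies at 1.66 but reaches 1.07 without 1 cell, while the innate-like list stays between 3.89 and 4.82.

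Markers of other cell types were sparse. The list of innate-like T and NK genes was higher, with 51 UMIs in knockout and 133 UMIs in fl/fl cells, or 593 and 133 CPM (ratio 4.47, 3.17 to 6.22). Of its 4 members with at least 30 UMIs Il18r1 and Cd44 were at least 2-fold higher, beside 7.76% of all genes at that minimum. Both are also among the genes printed above that were chosen after their values were seen. The list's defining markers were at or near 0. In knockout mature cells Zbtb16, Klrb1c, Tyrobp, Fcer1g and Ncr1 had 0 UMIs and Il2rb 3. In fl/fl mature cells Zbtb16, Tyrobp and Ncr1 had 0 while Fcer1g had 34 UMIs in 2 cells. The list's part in the genes above was not tested. This list was also higher in the knockout in single-coreceptor cells (ratio 3.55) and double positive cells (ratio 3.65).

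Gamma delta T cell genes had 10 UMIs in knockout and 20 UMIs in fl/fl cells (ratio 5.83, 2.44 to 13.05). The gate excluded Trdc. Of the other markers Sox13 had 0 UMIs in both libraries. Tcrg-C1 and Tcrg-C4 had 0 UMIs in knockout, and 5 and 6 in fl/fl cells. Tcrg-C2 had 4 UMIs in 2 knockout cells and 4 in 3 fl/fl cells, or 46.5 and 3.99 CPM (ratio 11.7, 2.17 to 62.6). The Tcrg-C2 ratio was 6.08 in single-coreceptor and 5.26 in double positive cells. B cell genes had 3 UMIs in knockout and 135 in fl/fl cells, 114 of these from Ighm, with Ms4a1 at 0 in both. Myeloid and antigen-presenting genes had 17 UMIs in knockout and 125 in fl/fl cells, with Lyz2, Csf1r and C1qa at 0 in both, and erythroid genes had 0 in both.

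Regulatory T cell genes were mixed. Foxp3, the lineage-defining factor, had 0 UMIs in knockout and 19 UMIs in 9 fl/fl cells. The exact interval of the knockout's 0 UMIs reaches 42.9 CPM, against 18.9 CPM measured in fl/fl cells. Tnfrsf18, encoding GITR, was at 198 CPM in knockout and 95.7 CPM in fl/fl cells (ratio 2.06, 1.15 to 3.48), and its ratio was 1.44 without 1 cell. Izumo1r was lower, and the summed list had a ratio of 1.14 (0.90 to 1.43), which was 0.74 without 1 cell. In a summed level, fewer expressing cells and less RNA per cell cannot be told apart, which is why cell counts are given beside the levels.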

How the data were processed

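Single-cell UMI count matrices of total thymocytes from 1 knockout and 1 Dhx15 fl/fl library were used as deposited: whole-number counts per gene and barcode, made with Cell Ranger 6.0.1 per the file headers. The submitters' processing notes also list Cell Ranger 6.0.2, Scanpy 1.7.1 and mm10, without roles. Members were gated on raw UMIs as stated in the report, UMIs were summed per library and population and scaled to 1000000 UMIs of that sum (CPM), and ratios of knockout to fl/fl were formed, with a library at 0 set to 3 counts. Ratio intervals are exact conditional binomial, shares exact binomial (Clopper-Pearson) and levels exact Poisson, all at 95%. Only the ratio intervals were tested on simulated data, drawn as Poisson counts without a spread between cells. With 1 library per group no test was run. Python 3.11.15, numpy 2.4.6, scipy 1.17.1, pandas 2.3.3 and scanpy 1.11.5 were used. Genes named are Dhx15, gate and marker genes, the 15 highest and 15 lowest ratios among annotated genes with at least 100 UMIs, 15 each way against other cells, and up to 4 members a list; others are marked as chosen after their values were seen. The members and lists were chosen with earlier results of these data known. Scrublet marked under 0.5% of cells and was not relied on. The deposited tables of the cell line experiments were not used. Some list members are not reported here.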

Additional observations from a re-analysis of the deposited data

Results flagged for a closer look

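Id2 and Il7r were picked out because the 2 genotypes differed in opposite directions in mature and in double positive cells, each by at least 2-fold. The log2 ratio of knockout to fl/fl for Id2 was 3.87 in mature and -1.80 in Rag1 double positive cells. For Il7r it was 2.32 in mature and -1.02 in double positive cells. The difference between the stages was not tested, since each genotype has 1 library.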

How the results depend on the processing

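The 13 knockout mature cells, with 86027 UMIs, limit every ratio, and the alternatives that leave out a knockout cell or change the denominator were added after seeing the data. No paired analysis was possible because each genotype has 1 library and no test was made. The ratio of mature shares lay at 0.0956 to 0.138 under other gates, thinning and filters, and moved to 0.442 per Trac cell without excluded genes and 0.458 per single-coreceptor cell. The fl/fl share of Cd8a cells was 30.9%, 44.8% after thinning, when 1 knockout cell had Cd8a alone, and 41.6% counting Cd8b1 as well. Of 4677 genes 935 (20.0%) lay beyond 2-fold. After thinning it was 125 of 578 (21.6%), with at least 100 UMIs 158 of 1592 (9.92%). Without a minimum 2572 of 11528 genes (22.3%) lay beyond 2-fold, and 1925 of 4677 (41.2%) lay beyond 1.5-fold. Leaving out each knockout cell gave 945 to 1043. Of the genes beyond 2-fold 38.8% were higher in the knockout, 43.2% with median-of-ratios scaling and 32.4% with totals free of ribosomal protein and mt- genes. Without a minimum 73.1% were higher, so the direction of the excess turned with that setting. Among genes beyond 2-fold, signs turned for Mthfd2 with 1 Klf2 UMI allowed (log2 0.36), for Smad7 (0.54) and Evl (0.21) after thinning, and, with each knockout cell left out, for Bak1 (-0.22 to 1.34) and Ccr9 (-0.32 to 1.52). Counting smaller ratios too, 24 of 143 genes and 16 of 37 lists changed sign under some alternative, 10 genes and 11 lists of these after thinning, such as Cd8b1 (ratio 0.72, then 4.13), Malat1 (1.09, then 0.38), Nop10 (0.74, then 1.77) and the T lineage transcription factor list (1.06, then 0.73). The ratio of Rmnd5a was 1.92, and 0.91 without 1 knockout cell. Causes were not tested beyond the smaller cell and gene numbers of these settings. The comparison within Cd4 and within Cd8a cells was not run, since the Cd8a class held under 50 cells.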
